A study of Mus musculus with 8 samples.

Results

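The genes described here are 10 forkhead transcription factors that are known from limb mesenchyme or from the growing skeleton: Foxc1, Foxc2, Foxd1, Foxf1 (written Foxf1a in older annotation), Foxf2, Foxp1, Foxp2, Foxp4, Foxo1 and Foxo3. Every probe that the array annotation gives to 1 of these symbols was taken, which came to 19 probes, out of 34885 probes for 19057 genes that carry a single gene symbol on the array. The cells came from hindlimbs of E12.5 mouse embryos, on a mixed C57BL/6J;129 background, and were sorted for green fluorescence. Bapx1 null cells were homozygous for the tm4.Tlu allele, in which the coding sequence of enhanced green fluorescent protein (EGFP) sits directly behind the Bapx1 start codon and replaces part of the endogenous gene. Wildtype cells carried the tm2.Tlu allele, in which an internal ribosome entry site and EGFP were placed in the 3' untranslated region so that Bapx1 protein is still made. The study's text writes the wildtype genotype as +/tm2.Tlu, which is 1 reporter copy against 2 in null, and the labels do not give its zygosity. In both groups the Bapx1 promoter therefore drove the reporter, and cells were collected by the reporter's fluorescence. Markers of other cell types were also measured on the arrays, as given below. RNA from 4 sorted populations of each genotype was hybridised to Illumina mouse whole-genome bead arrays, 1 array per population, and the sources used here do not say how many embryos made up a population.

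Forkhead proteins bind DNA through a winged helix domain, and the subfamilies differ in how they act. Foxc, Foxd and Foxf proteins are regulators of mesenchymal identity, with Foxf genes known as hedgehog-responsive genes in visceral mesenchyme. Foxp proteins pair with one another through a leucine zipper and mostly repress transcription, and Foxo proteins are held out of the nucleus when insulin-like signals activate the kinase Akt.

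Bapx1 (Nkx3-2), the targeted gene, had 2 probes. They averaged 8.48 ± 0.48 and 8.12 ± 0.44 on the 4 arrays labelled null and 4.52 ± 0.12 and 4.43 ± 0.06 on the 4 arrays labelled wildtype (SD, n = 4 each, normalized log2 level). They stood above background on 4 of 4 null arrays and on 0 of 4 wildtype arrays, so that null exceeded wildtype at least 10.4-fold by the first probe and at least 8.07-fold by the other, taking the lowest detected signal of each wildtype array as the limit. Only the null arrays brought these probes into the test. The limma adjusted p, 9.52e-05 for both, belongs to folds fitted against wildtype values under that limit and does not measure these bounds. The sources used here do not place these probes relative to the deleted part or to the inserted reporter, so they do not check the genotypes, and every direction below is that of the arrays labelled null against the arrays labelled wildtype. Of the 4 hindlimb genes listed as markers, Tbx4, Pitx1 and Hoxc10 were above background on 4 of 4 arrays of each genotype, and Hoxc11 on no array. Tbx5, the forelimb gene, was also above background on no array.

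Each array detected between 18375 and 20256 probes, and the correlation between any 2 arrays lay between 0.955 and 0.987. Wildtype replicate 4 stood apart, with the fewest detected probes, the lowest median intensity (7.5, against 8.0 to 13.5 on the other arrays) and the lowest limma array weight (0.37). Log2 folds or p-values without it are given below for Foxc1, Foxc2, Foxf2, Foxp1, Foxp2, Foxo1 and Foxo3. Markers of other cell types differed between the groups. The log2 fold was negative for all 10 platelet genes with a tested probe, and 9 of them passed the test as lower in null, where 0.613% of all genes did. Among those called, Gp6 was above background on 0 null arrays and Gp1bb, Vwf, Treml1, Itga2b and Ppbp on 2 each. All of these were above background on 4 wildtype arrays. The wildtype arrays alone thus brought them into the test, and their folds are partly taken against background. The summed normalized signal of the 10 genes was 401 to 1404 on null arrays and 5634 to 6564 on wildtype arrays. The summed signal of 8 red cell genes was 5414 to 41347 in null and 2439 to 4415 in wildtype, and 1 of the 8 was higher in null by the test, where 0.334% of all genes were. The sum of 15 cartilage genes was 43354 to 53231 in null and 58439 to 67082 in wildtype. The log2 fold was negative for 14 of the 15, and 8 had an unadjusted limma p under 0.05, where 11.5% of all genes had one. By the test 1 of them was lower in null, where 0.613% of all genes were, and a dimmer probe of Wwp2 was also called. The sum of 8 limb mesenchyme genes overlapped, at 2862 to 6027 in null and 3389 to 4442 in wildtype, and 0 of the 8 passed. Single genes of this list went both ways. An unadjusted limma p under 0.05 was found for 3 of the 8, where 11.5% of all genes had one. These were Prrx1, Msx1 and Twist2, with log2 folds of 1.18, 1.43 and 0.77. The other 5 log2 folds were negative, the lowest being -0.54 for Meis2. Among the lists with no gene past the test, 9 endothelial genes summed to 924 to 1629 in null and 1038 to 3146 in wildtype, and 7 macrophage genes to 223 to 690 in null and 392 to 607 in wildtype. Likewise 5 muscle genes summed to 712 to 2329 in null and 946 to 1508 in wildtype, 2 nerve genes to 251 to 426 in null and 418 to 606 in wildtype, and 6 surface ectoderm genes to 617 to 854 in null and 486 to 1027 in wildtype. Of the marker genes, Msx2 (limb mesenchyme), Hoxc11 (hindlimb), Kdr and Erg (endothelium), C1qa and Fcgr1 (macrophages), Myf5 (muscle), Tubb3, Fabp7 and Erbb3 (nerve), and Krt5 and Wnt7a (ectoderm) were above background on no array. The part of these other cells in the forkhead values was not tested, and in sorted populations fewer cells of a type and less RNA per cell cannot be told apart.

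The comparison asks which of these genes differ in the Bapx1 domain of the hindlimb when Bapx1 is lost. A probe was tested when 4 or more of the 8 arrays showed it above background, at a detection p under 0.05, and was called when its limma p, adjusted by the Benjamini-Hochberg method over all 19568 tested probes, was under 0.05. Of the 19 forkhead probes 15 were tested, for 9 of the 10 genes. Foxf1 had no tested probe, being above background on 1 null array and on 0 wildtype arrays, and 1 further Foxp2 probe and 2 further Foxo3 probes were above background on none. No forkhead probe was called, 0 of 15, where 0.761% of all tested probes were called (0.439% lower and 0.322% higher in null). At an unadjusted limma p under 0.05 there were 7 of the 15, 3 higher and 4 lower in null, against 11.3% of all tested probes (5.59% higher and 5.69% lower). Among the 3 was the dimmer Foxo1 probe, which a single wildtype array detected. The count of 7 was 4 without wildtype replicate 1, without wildtype replicate 4, without null replicate 2, with scaling by the median absolute deviation and by the methods' t-test. Without wildtype replicate 4 the unadjusted limma p was 0.0755 for Foxc2, 0.0857 for the dimmer Foxp1 probe, 0.0704 for the dimmer Foxo1 probe and 0.0557 for Foxo3. That of Foxc1 was then 0.0462. The arrays of the 2 groups did not overlap for 2 of the 15, both lower in null, against 6.29% of all tested probes (2.55% with null above and 3.74% with null below). Counting each gene once by its brightest probe, 4 of 9 genes had an unadjusted p under 0.05, against 11.5% of all genes. Repeating the test with array weights called 1 of the 15, and the methods' t-test called 0. The median size of the log2 fold was 0.29 over the 15 probes and 0.15 over all tested probes, and the median signed log2 fold was -0.11 for the forkhead probes and -0.03 for all. Probes of 1 gene share a target, so these counts are not counts of independent measurements.

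**Figure D1:**
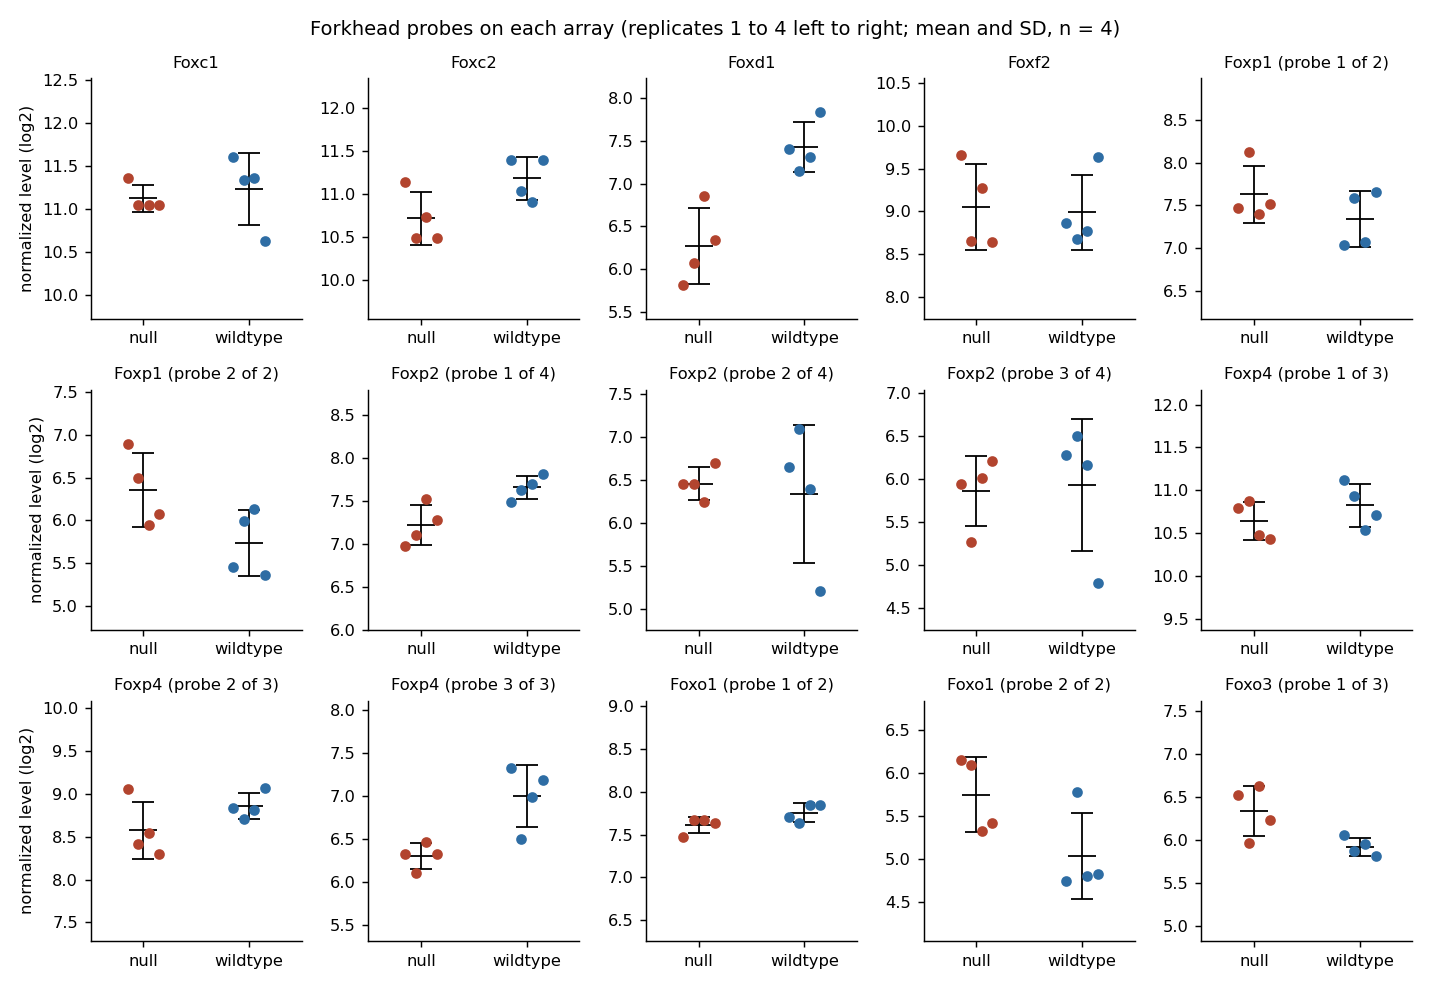
Normalized log2 level of each of the 15 tested forkhead probes on the 4 null arrays (left, red) and the 4 wildtype arrays (right, blue) with the mean and SD; every panel spans the same number of log2 units. Only in the Foxd1 panel and in that of Foxp4 probe 3 do all 4 null arrays lie below all 4 wildtype arrays.

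Foxd1, a regulator of renal stroma and retina that is also expressed in embryonic mesenchyme, had the smallest p of the 15 probes. Its normalized log2 level was 5.82, 6.07, 6.85 and 6.34 on null arrays 1 to 4, and 7.40, 7.15, 7.31 and 7.83 on wildtype arrays 1 to 4. The groups did not overlap: the highest null array, replicate 3, lay below the lowest wildtype array, replicate 2. The means were 6.27 ± 0.44 in null and 7.43 ± 0.29 in wildtype (SD, n = 4 each), which is a log2 fold of -1.15 ± 0.23 (SE; 95% interval -1.68 to -0.63), or a 2.22-fold lower level in null. Its p was 0.000687, a value reached by 0.976% of all tested probes, and its adjusted p was 0.0699, so Foxd1 missed the threshold. A log2 fold this low or lower was measured for 60 of the 19568 probes (0.307%). Foxd1 is also among the hindlimb genes that the study picked from these same arrays, so its low level here is not independent evidence.

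Leaving out 1 array could bring Foxd1 past the threshold. Without null replicate 3, the null array with the highest Foxd1 level, the log2 fold was -1.35 and the adjusted p was 0.029. Leaving out each of the other 7 arrays in turn gave adjusted p-values between 0.0878 and 0.192. With array weights the log2 fold was -1.04 and the adjusted p 0.0467, and under the 9 other alternatives it stayed negative, from -1.43 to -0.78, with adjusted p-values from 0.0613 to 0.683. Among the null arrays, the summed platelet signal was also highest on replicate 3 (1404) and lowest on replicate 1 (401), the array with the lowest Foxd1 level, while replicates 2 (1297) and 4 (706) stood in the opposite order to their Foxd1 levels. Replicate 1 was likewise the lowest null array for the sums of limb mesenchyme, endothelial, macrophage, muscle and nerve genes, and the highest for cartilage genes. The limb mesenchyme, macrophage, muscle and nerve sums were highest on null replicate 4. Any part of these cells in the Foxd1 values was not tested.

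**Figure D2:**
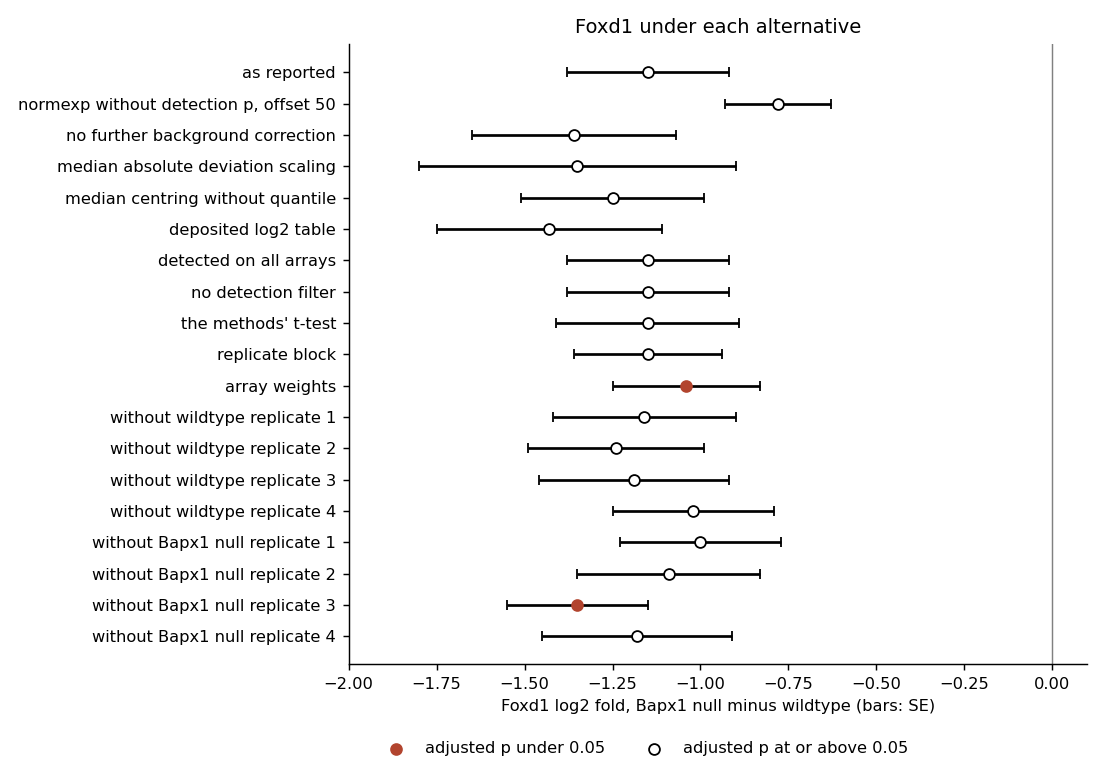
Log2 fold of Foxd1 (null minus wildtype, with SE bars) as reported and under each of the 18 alternatives, filled red where the adjusted p was under 0.05. All 19 values lie below 0, and 2 of them, with array weights and without null replicate 3, are filled.

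Foxc1 and Foxc2, paired regulators of somite, vascular and skeletal mesenchyme, were read by 1 probe each. Foxc2 levels were 11.14, 10.49, 10.73 and 10.49 on null arrays 1 to 4 and 11.40, 11.03, 10.90 and 11.39 on wildtype arrays 1 to 4. Null replicates 2 to 4 lay below every wildtype array, and null replicate 1 lay inside the wildtype range. The log2 fold of Foxc2 was -0.47 ± 0.18 (SE; 95% interval -0.88 to -0.05), with an unadjusted p of 0.0315 and an adjusted p of 0.384. Foxc1 levels were 11.36, 11.04, 11.05 and 11.04 on null arrays and 11.61, 11.34, 11.36 and 10.63 on wildtype arrays. Here wildtype replicate 4 was the lowest of all 8 arrays and the other 3 wildtype arrays lay at 11.34 or above, a level that only null replicate 1 also reached. The log2 fold of Foxc1 was -0.11 ± 0.20 (95% interval -0.57 to 0.34, adjusted p = 0.877). It was -0.31 without wildtype replicate 4 (unadjusted p = 0.0462, adjusted p = 0.364) and -0.26 with array weights, and it was 0.01 without wildtype replicate 1 and 0.10 with scaling by the median absolute deviation.

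Foxf2, which is known for its part in palate and gut mesenchyme, measured 9.66, 8.65, 9.27 and 8.64 on null arrays and 8.87, 8.68, 8.77 and 9.63 on wildtype arrays. A single wildtype array, replicate 4, and null replicates 1 and 3 were high, and the other 5 lay close together. The log2 fold was 0.07 ± 0.28 (95% interval -0.56 to 0.70, adjusted p = 0.95), a value that was 0.28 without wildtype replicate 4 (adjusted p = 0.655) and whose sign turned when any of 4 other arrays was left out. Its relative Foxf1 read 4.70, 5.43, 4.81 and 4.60 on null arrays and 4.83, 4.85, 4.86 and 4.93 on wildtype arrays, with only null replicate 2 above background.

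In the mouse genome Foxf2 lies next to Foxc1, between Foxq1 and Gmds, and Foxf1 lies near Foxc2 with Mthfsd between them and Foxl1 beyond, as the order of genes in the RefSeq annotation of GRCm38.p6 shows. Of these 4 neighbours Foxq1 and Foxl1 had no tested probe. Foxq1 measured 5.54, 5.16, 4.85 and 4.93 on null arrays, 2 of them above background, and 4.58, 4.38, 4.48 and 4.52 on wildtype arrays, none above background, and Foxl1 was above background on no array. Gmds, an enzyme of GDP-fucose synthesis, had a log2 fold of 0.12 and Mthfsd one of 0.07, and neither was called.

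**Figure D3:**
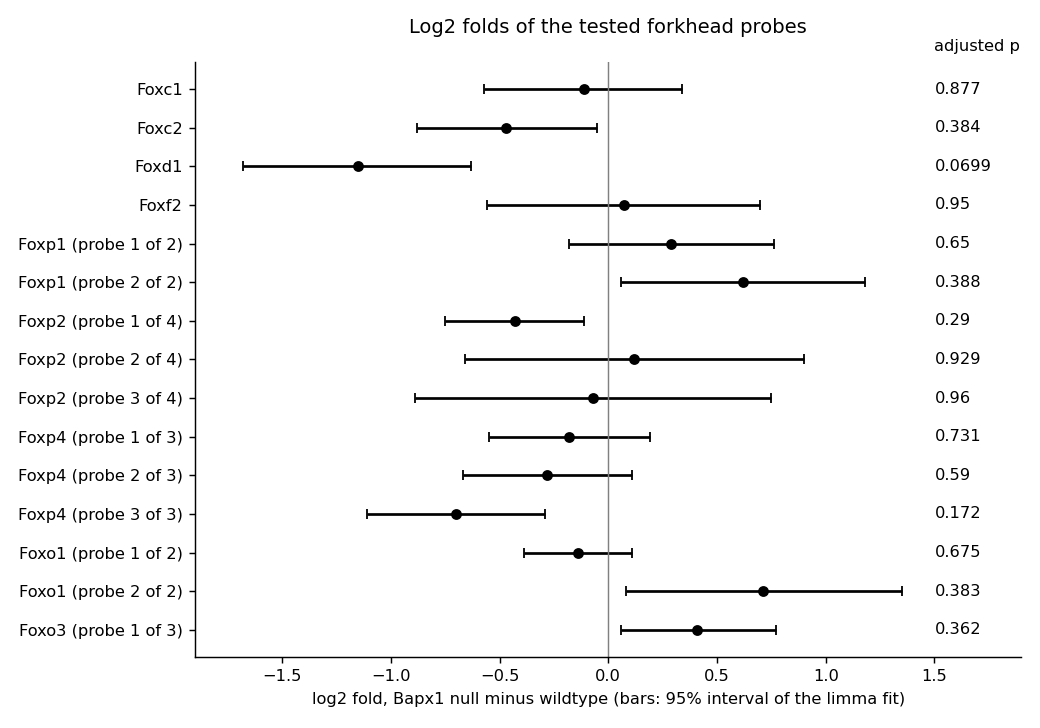
Log2 fold (null minus wildtype) of the 15 tested forkhead probes with the 95% interval of the limma fit and, at the right, the p adjusted over all tested probes. The interval leaves out 0 for 7 probes, and the smallest adjusted p is that of Foxd1, 0.0699.

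The 3 Foxp genes act together in cartilage and bone growth and were read by 8 tested probes, numbered here within each gene by brightness. None was called, and 3 of the 8 had an unadjusted p under 0.05, where 11.3% of all tested probes had one. The log2 fold was positive for 3 of the 8. Both Foxp1 probes had a positive log2 fold. The dimmer one, probe 2, measured 6.89, 6.50, 5.95 and 6.08 on null arrays and 5.46, 5.99, 6.13 and 5.36 on wildtype arrays. Null replicates 1 and 2 were above every wildtype array, and null replicates 3 and 4 lay within the wildtype range. Its log2 fold was 0.62 ± 0.25 (95% interval 0.06 to 1.18), with an unadjusted p of 0.0332 and an adjusted p of 0.388. Probe 1 measured 7.47, 8.12, 7.40 and 7.52 on null arrays and 7.04, 7.59, 7.07 and 7.66 on wildtype arrays. Wildtype replicates 2 and 4 were as high as most null arrays, and the log2 fold was 0.29 ± 0.21 (adjusted p = 0.65).

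Foxp2, best known as the human speech gene, had probes that did not follow one another on every array. The brightest probe measured 6.98, 7.11, 7.52 and 7.28 on null arrays and 7.49, 7.63, 7.70 and 7.82 on wildtype arrays. Only null replicate 3 reached into the wildtype range, and the log2 fold was -0.43 ± 0.14 (95% interval -0.75 to -0.11), with an unadjusted p of 0.0135 and an adjusted p of 0.29. Probe 2 measured 6.45, 6.45, 6.24 and 6.70 on null arrays and 6.65, 7.10, 6.40 and 5.21 on wildtype arrays. Probe 3 measured 5.95, 5.27, 6.02 and 6.21 on null arrays and 6.28, 6.50, 6.16 and 4.79 on wildtype arrays. On both of these probes wildtype replicate 4 was the lowest array of all 8, whereas on the brightest probe it was the highest. Probes 2 and 3 are annotated to a transcript record that they share, and the brightest probe to a different record of the gene. Their log2 folds were 0.12 ± 0.35 and -0.07 ± 0.36 (adjusted p = 0.929 and 0.96). Without wildtype replicate 4 the log2 folds of all 3 probes were negative, at -0.38, -0.26 and -0.45 from the brightest to the dimmest, with adjusted p-values of 0.333, 0.577 and 0.419.

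**Figure D4:**
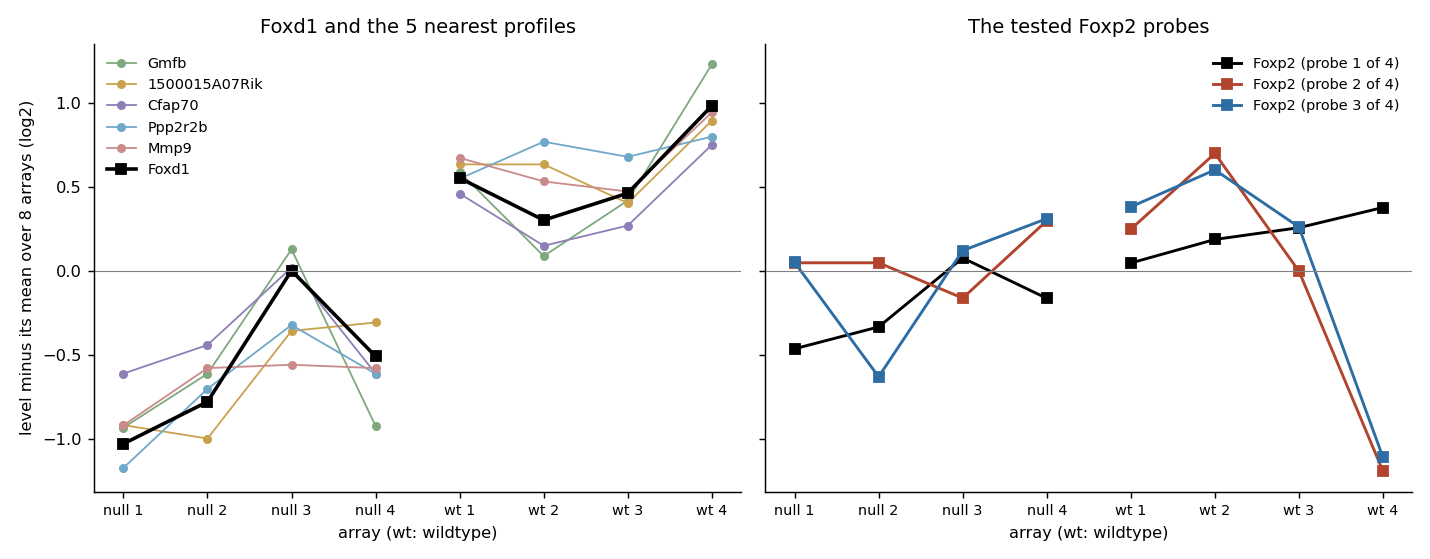
Level minus its mean over the 8 arrays (log2) along null arrays 1 to 4 and wildtype (wt) arrays 1 to 4, for Foxd1 and the 5 genes with the nearest profile (left) and for the 3 tested Foxp2 probes (right). Foxd1 is low on the null arrays and least so on replicate 3, and Foxp2 probes 2 and 3 drop together on wildtype replicate 4 where probe 1 is highest.

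Foxp4 was read by 3 tested probes, all with a negative log2 fold. Its dimmest probe, probe 3, measured 6.32, 6.10, 6.46 and 6.32 on null arrays and 7.32, 6.50, 6.99 and 7.19 on wildtype arrays. The groups did not overlap, although the highest null array (6.46) and wildtype replicate 2 (6.50) nearly met. The log2 fold was -0.70 ± 0.18 (95% interval -1.11 to -0.29), a 1.62-fold lower level in null, with an unadjusted p of 0.00371 and an adjusted p of 0.172. Leaving out wildtype replicate 2 gave -0.87 with an adjusted p of 0.0438, and leaving out any other array gave adjusted p-values from 0.212 to 0.398. Probe 1 measured 10.79, 10.88, 10.48 and 10.43 on null arrays and 11.12, 10.93, 10.54 and 10.71 on wildtype arrays, which overlapped. The log2 folds of probes 1 and 2 were -0.18 ± 0.16 and -0.28 ± 0.17 (adjusted p = 0.731 and 0.59), and their annotated transcript records differed from each other and from that of probe 3.

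Foxo1 and Foxo3, the effectors held in check by insulin-like signalling, had 3 tested probes between them. The brighter Foxo1 probe measured 7.47, 7.67, 7.67 and 7.63 on null arrays and 7.70, 7.63, 7.85 and 7.84 on wildtype arrays. It had the smallest SE of the 15 forkhead probes, with a log2 fold of -0.14 ± 0.11 (95% interval -0.39 to 0.11, adjusted p = 0.675). The dimmer Foxo1 probe, annotated to the same transcript record, measured 6.15, 6.10, 5.33 and 5.42 on null arrays and 4.74, 5.78, 4.80 and 4.82 on wildtype arrays. It was above background on 4 of 4 null arrays and on 1 of 4 wildtype arrays, replicate 2, which lay above null replicates 3 and 4. It thus passed the detection filter through the null arrays, and the fitted log2 fold of 0.71 (unadjusted p = 0.0314, adjusted p = 0.383) is taken against values that on wildtype replicates 1, 3 and 4 lie under the lowest detected signal. With those 3 values set to that signal the log2 difference was 0.47, or 1.38-fold. The fitted fold moved with the background correction, since it was 0.35 with normexp and an offset of 50 and 1.47 with no further correction. The tested Foxo3 probe measured 6.52, 5.97, 6.63 and 6.24 on null arrays and 6.06, 5.87, 5.95 and 5.82 on wildtype arrays. Null replicates 1, 3 and 4 lay above every wildtype array and replicate 2 lay within their range, and the log2 fold was 0.41 ± 0.16 (95% interval 0.06 to 0.77), with an unadjusted p of 0.0265 and an adjusted p of 0.362.

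The difference in log2 fold between 2 tested probes of a gene was largest, apart from the Foxo1 pair with its dim probe, for Foxp2 probe 2 against probe 1 (0.55), and for Foxp4 probe 3 against probes 1 and 2 (-0.52 and -0.42). An exact two-sided permutation test over all 70 ways to assign 4 arrays to null was added after the values had been seen. It allows no p below 0.0286, and adjusted over the 8 pairs in Foxp1, Foxp2, Foxp4 and Foxo1 a lone pair could not fall below 0.229, so it could not call any single pair. The exact p was 0.314 for that Foxp2 pair and 0.114 for each of the Foxp4 pairs (adjusted p = 0.594 and 0.305). For the Foxo1 pair the difference was 0.85 and the exact p 0.0857 (adjusted p = 0.305). No probe of a gene can be said from this test to move apart from another or to move alike.

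The genes whose profile over the 8 arrays was nearest to that of Foxd1 were sought by the root mean square difference of centred log2 levels, among 10771 genes by their brightest probe. The 5 nearest were Gmfb and 1500015A07Rik, each at 0.21, and Cfap70, Ppp2r2b and Mmp9, each at 0.23, where the median over all genes was 0.66. Mmp9, a gelatinase, measured 6.10 ± 0.17 in null and 7.41 ± 0.21 in wildtype, and Ppp2r2b, a regulatory subunit of protein phosphatase 2A, 7.78 ± 0.35 in null and 9.18 ± 0.11 in wildtype (SD, n = 4 each). Gmfb was above background on 2 of 4 null arrays and Cfap70 on 1 of 4, and both on 4 of 4 wildtype arrays. Because the profile of Foxd1 was dominated by the step between the groups, any gene with a step of similar size scores as near, and these values are given with no test.

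The array holds 58 probes for 33 other forkhead genes, of which 16 probes for 9 genes were tested. None of the 16 was called (0 by limma), where 0.761% of all tested probes were. An unadjusted p under 0.05 was found for 2 of the 16, near the share of 11.3% among all tested probes. Foxn3, a checkpoint-linked repressor, had the widest spread: it measured 9.24, 10.60, 9.0 and 9.80 on null arrays and 7.25, 9.85, 7.02 and 8.83 on wildtype arrays, with wildtype replicates 1 and 3 far below the rest. Its log2 fold was 1.42 ± 0.62 (unadjusted p = 0.046, adjusted p = 0.429). A dim probe of Foxj3 had a log2 fold of 0.66 (unadjusted p = 0.0186, adjusted p = 0.323). It was above background on 4 null arrays but on only 2 wildtype arrays, so the null arrays alone met the detection filter. The brighter tested Foxj3 probes had log2 folds of -0.09, -0.13 and 0.29. The third smallest p belonged to a Foxk2 probe with a log2 fold of 0.50 (unadjusted p = 0.164). The median log2 fold over the 16 probes was 0.09, beside -0.11 for the 15 forkhead probes above.

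Genes around the forkhead factors were read from lists, each gene by its brightest tested probe and counted as measured only where it had one, where 0.947% of all 10772 genes were called (0.613% lower and 0.334% higher in null). Of 23 genes known as Foxo targets 20 were measured. Ccng2, an unconventional cyclin that Foxo proteins activate, was the 1 called, and none was called higher. The list was chosen with earlier results of these data known, so this call is not independent evidence about Foxo activity. It measured 9.73, 9.06, 9.65 and 10.21 on null arrays and 10.99, 10.98, 11.04 and 10.72 on wildtype arrays, without overlap, a log2 fold of -1.27 ± 0.22 with an adjusted p of 0.0387. The Ccng2 log2 fold lay between -1.45 and -1.07 when an array was left out and between -1.42 and -1.17 under the other alternatives. Its call was lost when any array other than null replicates 2 and 4 was left out, with adjusted p up to 0.144, and under 7 of the 10 other alternatives, with adjusted p up to 0.843. Next in p were 2 stress genes that arrest the cell cycle, Gadd45a with a log2 fold of 0.43 ± 0.13 (adjusted p = 0.246) and Gadd45b with -0.40 ± 0.14 (adjusted p = 0.33). An unadjusted limma p under 0.05 was found for 5 of the 20, where 11.5% of all genes had one. The median log2 fold of the 20 was -0.08, and 12 of them were negative.

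Of 22 genes that control Foxo activity 19 were measured and 0 were called by limma. An unadjusted p under 0.05 was found for 2 of the 19, near the share of 11.5% among all genes. Sgk1, a kinase related to Akt, measured 11.24, 11.03, 11.18 and 11.20 on null arrays and 11.74, 11.53, 11.72 and 11.52 on wildtype arrays. All null arrays lay below all wildtype arrays, and the log2 fold was -0.46 ± 0.11 (adjusted p = 0.134). Pik3cb, a catalytic subunit of phosphoinositide 3-kinase, had a log2 fold of -0.52 ± 0.16 (adjusted p = 0.262), and Pdpk1, which activates both kinases, 0.70 ± 0.33 (adjusted p = 0.461). The median of the 19 was -0.08.

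Of 12 corepressor partners of Foxp proteins 8 were measured, and 0 were called or had an unadjusted p under 0.05, where 11.5% of all genes had one. Their log2 folds lay between -0.19 and 0.20 with a median of -0.04, the narrowest range of the 4 pathway lists, and those of smallest p were Ctbp2 (-0.18), Chd4 (0.14) and Mta1 (0.20). Of 13 hedgehog pathway genes 7 were measured and 0 called, and neither ligand of the list, Shh or Ihh, had a tested probe. Hhip, which binds and sequesters the ligands, had a log2 fold of 0.56 ± 0.18 (adjusted p = 0.287, the only hedgehog gene with an unadjusted p under 0.05). Its probe was above background on 4 null arrays but on only 2 wildtype arrays, so the null arrays alone met the detection filter. On wildtype replicates 3 and 4 it read 4.91 and 4.93, under the lowest detected signal, so the fold is partly taken against background. The receptor Ptch1 had a log2 fold of -0.35 ± 0.18 (adjusted p = 0.516) and the transcription factor Gli3 one of 0.22 ± 0.13 (adjusted p = 0.582). The median of the 7 was -0.18.

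**Figure D5:**
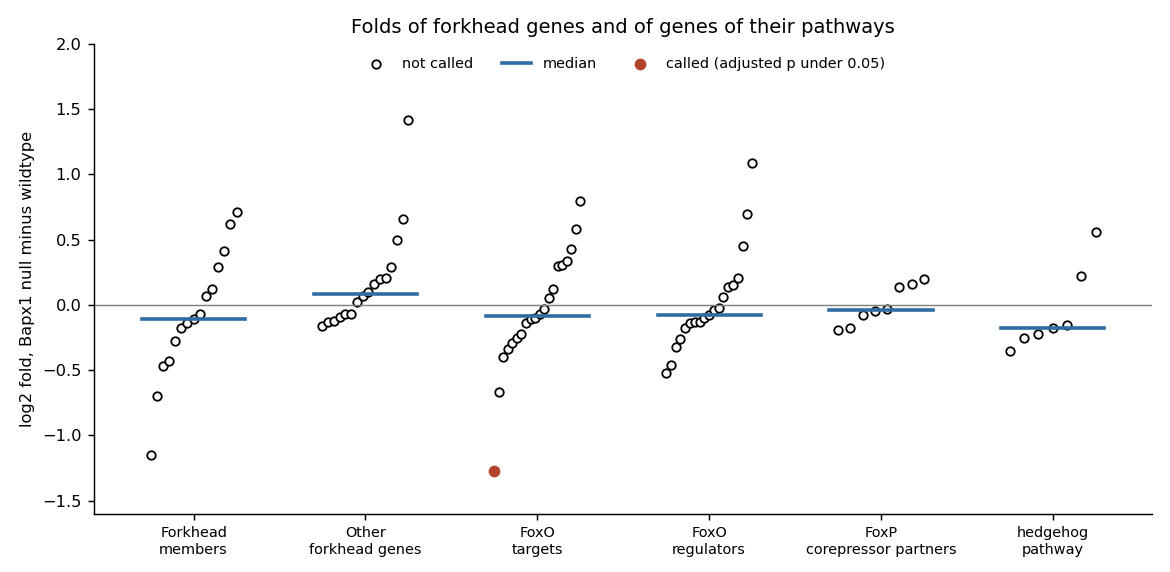
Log2 fold (null minus wildtype) of the 15 tested forkhead probes, of 16 probes of other forkhead genes, and of the measured genes of 4 pathway lists by their brightest probe, sorted within each list with the median as a blue line. Ccng2 among the Foxo targets, at -1.27, is the only point called.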

How the data were processed

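RNA of sorted hindlimb cells from 4 Bapx1 null and 4 wildtype populations was measured on MouseWG-6 v2.0 bead arrays. The authors deposited background-subtracted intensity values made with GenomeStudio, of a version that the sources used here do not give, with a deposited detection score per value that rises with intensity and was read as 1 minus the detection p. A deposited log2 table names the probes. It equals, row by row, log2 of the intensity (values under 1 set to 1) after subtraction of an array median and of a constant for each probe, so intensities were joined to probe names by their values: 35454 of 45281 rows matched 1 row to within 2.2e-06, the other 9827 fit several rows, none of them tested. Column medians of the log2 table ran from -0.04 to 0.42, the highest being that of wildtype replicate 4, for a reason not known here. The platform annotation, which can be old, gave 16571 of 19568 tested probes 1 symbol, 8 several and 2989 none.

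Intensities were corrected and quantile-normalized with neqc (offset 16) in limma 3.58.1 under R 4.3.3 and fitted with lmFit and eBayes, null against wildtype, two-sided, with Benjamini-Hochberg adjustment. The study's methods state scaling by the median absolute deviation and ANOVA, which were run as alternatives together with other background corrections, median centring, the log2 table, other detection filters, the replicate number as a block, array weights and leaving out each array. Slide could not be used, since the headers give none. The scripts were tested on simulated data. Named were every forkhead probe, of each list the called genes and the 3 of smallest p, the 5 profiles nearest to the forkhead probe of smallest p, and Bapx1. The genes and lists were chosen with earlier results of these data known. The methods call the 4 populations biological replicates, and p-values measure the spread between them. On arrays, precision is limited by their number, here with a median SE of 0.165 per log2 fold. A level under the lowest detected signal of an array, between 4.99 and 5.20, is only a bound.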

Additional observations from a re-analysis of the deposited data

Results flagged for a closer look

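In 3 of 30 groups of 4 arrays, 1 array stood apart from the other 3 by a gap past the limit of Dixon's test for 4 values, which chance passes in about 1 of 20 groups. Foxc1 measured 11.36 on null replicate 1, against 11.04 to 11.05 on the other null arrays. The brighter Foxp1 probe measured 8.12 on null replicate 2, against 7.40 to 7.52 on the other null arrays. The dimmer Foxo1 probe measured 5.78 on wildtype replicate 2, against 4.74 to 4.82 on the other wildtype arrays, and was not above background on any of those 3. With the lowest detected signal of each wildtype array as the limit, the level was at least 1.38-fold higher in null over all wildtype arrays. That limit was 1.55-fold without replicate 2, which leaves out the only wildtype array that detected the probe. The probe had passed the detection filter through the null arrays.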

How the results depend on the processing

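Of all tested probes 149 were called. The count was 59 with no further background correction, 10 with scaling by the median absolute deviation, 65 from the deposited log2 table, 97 with detection on all arrays required, 53 by the methods' t-test and 267 with array weights, and it lay between 59 and 150 when an array was left out (79 without wildtype replicate 1, 59 without wildtype replicate 3, and 97, 91 and 81 without null replicates 2, 3 and 4). The share of calls that were higher in null was 42.3%, but 80.0% with scaling by the median absolute deviation and 55.3% without null replicate 1. Forkhead probes called numbered 1 with array weights (Foxd1), against 0 as reported, and ranged from 0 to 1 when an array was left out (Foxp4 probe 3 without wildtype replicate 2, Foxd1 without null replicate 3). With the replicate number as a block 108 probes and 0 forkhead probes were called, and Foxd1 had an adjusted p of 0.0925. Whether equal numbers mark paired arrays is not known. The deviations of same-numbered arrays correlated at 0.074, 0.457, 0.256 and -0.313, and those of differently numbered arrays at -0.619 to 0.411. So few values cannot settle it. The block changed no forkhead call, and Ccng2 was lost with it (adjusted p = 0.0925).

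The sign turned for 4 forkhead probes, none of them called. Foxc1 was 0.10 with scaling by the median absolute deviation and -0.31 to 0.01 when an array was left out. Foxf2 was -0.10 with median centring, -0.05 from the log2 table and -0.13 to 0.28 when an array was left out. Foxp2 probe 2 was -0.01 with median centring and with array weights, and -0.26 to 0.37 when an array was left out. Foxp2 probe 3 was 0.07 with no further background correction, 0.17 with scaling by the median absolute deviation, 0.02 from the log2 table, and -0.45 to 0.13 when an array was left out. Median centring and the log2 table moved the median of all probes to -0.14 and -0.11. The cause of these changes was not tested. Foxp2 probe 3 and Foxo1 probe 2 gave no value with detection on all arrays required. For Foxf1, dim signal sets the limit: a level below background leaves a difference undetectable, not absent.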
